A study of Mus musculus with 22 samples.

Results

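The genes described here encode the proton pump of the lysosome, proteins of its membrane and proteins of its lumen, in microglia sorted from mouse retina. They were taken from a fixed list of 38 gene names among the 35596 genes with a summed estimated read count, of which 12415 passed a filter on low counts. All 38 passed it. The list holds 16 genes of the vacuolar-type proton ATPase (names beginning Atp6), 6 membrane genes and 16 genes for luminal proteins.

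The vacuolar ATPase pumps protons into the lysosome. Its V1 sector, in the cytosol, splits ATP, and its V0 sector, in the membrane, carries the protons across, so that the lumen becomes acid. Most luminal hydrolases work only at acid pH and break down swallowed protein, lipid and glycan, while membrane proteins line the organelle and let ions and products of digestion out. In microglia, the resident macrophages of neural tissue, this machinery digests engulfed cells.

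The libraries fall into 4 groups, from phagocytic cells of Apoe-/- mice (labelled Apoe KO, 6 libraries), non-phagocytic cells of Apoe-/- mice (6 libraries), phagocytic cells of wild-type C57BL/6 mice (5 libraries) and non-phagocytic cells of wild-type mice (5 libraries). Apoe encodes apolipoprotein E, a lipid carrier. Mice of every group were 12 weeks old and had received apoptotic neurons in the vitreous, the gel that fills the eye, and per the file headers the cells were profiled 24 hours later by a full-length cDNA method (SMART-Seq2). No uninjected retina is among the groups. Cells carrying CD11b and Fcrls and lacking Ly6c were sorted, and uptake of the Alexa488 label parted phagocytic from non-phagocytic cells. Each library came from a pool of 5 to 6 retinas of 1 genotype and 1 sex, so the p-values measure the spread between such pools. No label gives a pool's sex.

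The libraries held 1131239 to 3643674 estimated reads and 16547 to 21776 genes with a read. The targeted gene fitted the labels, with Apoe at 17.6 ± 9.56 CPM and 10.4 ± 4.24 CPM in Apoe-/- phagocytic and non-phagocytic cells (SD, n = 6 each), against 2276 ± 1639 CPM and 1173 ± 299.8 CPM in wild-type phagocytic and non-phagocytic cells (SD, n = 5 each). CPM is the read count of a gene scaled to library size times the library's TMM factor, and it serves to compare libraries. The TMM factors ran from 0.654 to 1.241. They were lowest in Apoe-/- non-phagocytic pools 2 and 5 (0.654 and 0.723), so CPM in these pools stand above the plain share of reads. Satellite-like predicted genes took 9.13% to 51.7% of a library's reads, most in Apoe-/- non-phagocytic pools 2 and 5 (51.7% and 47.6%). All 8 microglial markers were above 10 CPM on average in every group. Their summed level was 3614 to 10270 CPM in phagocytic Apoe-/- pools and 5480 to 12710 CPM in non-phagocytic Apoe-/- pools, and 3259 to 12850 CPM in phagocytic wild-type pools and 3199 to 13930 CPM in non-phagocytic wild-type pools. The means of 6 of the 8, among them P2ry12, Siglech and Gpr34, were lower in phagocytic cells in both genotypes. That of Fcrls was higher in both. Between the sorts the adjusted p of the 8 lay between 0.233 and 0.964 (edgeR).

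Summed RNA for the proton pump was higher in phagocytic than in non-phagocytic cells in both genotypes. The summed level of the 16 pump genes was 3184 ± 278 CPM in phagocytic Apoe-/- pools and 2115 ± 184 CPM in non-phagocytic Apoe-/- pools (SD, n = 6 each), a ratio of 1.51. In wild-type mice it was 3286 ± 495 CPM in phagocytic pools and 2208 ± 80.5 CPM in non-phagocytic pools (SD, n = 5 each), a ratio of 1.49. Atp6v0c gave more of this sum than any other pump gene in every group. Its mean was 846 and 501 CPM in phagocytic and non-phagocytic Apoe-/- pools, and 967 and 530 CPM in the wild-type ones. In neither genotype did the summed CPM of the 16 genes overlap between the sorts. The nearest were the lowest phagocytic sum of 2805 CPM and the highest non-phagocytic sum of 2345 CPM, both in Apoe-/- mice. Summed as deposited TPM, a length-corrected level without TMM scaling, the sorts overlapped in both genotypes. The lowest phagocytic sum was 1461 TPM in Apoe-/- mice and 2262 TPM in wild-type mice. The highest non-phagocytic sum was 2077 TPM in Apoe-/- mice and 2464 TPM in wild-type mice.

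In CPM the other classes overlapped between the sorts. Luminal genes summed to 7950 ± 1327 CPM in phagocytic Apoe-/- pools and 6319 ± 1627 CPM in non-phagocytic Apoe-/- pools, and to 8601 ± 1199 CPM in phagocytic wild-type pools and 6811 ± 1675 CPM in non-phagocytic wild-type pools (SD, n = 6 and 5), a ratio of 1.26 in each genotype. Membrane genes summed to 2515 ± 422 CPM in phagocytic Apoe-/- pools and 2559 ± 503 CPM in non-phagocytic Apoe-/- pools, and to 2881 ± 439 CPM in phagocytic wild-type pools and 2588 ± 475 CPM in non-phagocytic wild-type pools (SD, n = 6 and 5). The pump sum varied least among pools in 3 of the 4 groups (coefficient of variation 3.64% to 8.73%, against 16.7% to 25.7% for the luminal sum), and in wild-type phagocytic pools the values were 15.1% and 13.9%. No test was made on these sums, nor of a difference between the classes. Since the samples are bulk RNA of sorted cells, a change in the mix of cells and a change in RNA per cell cannot be told apart.

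**Figure D1:**
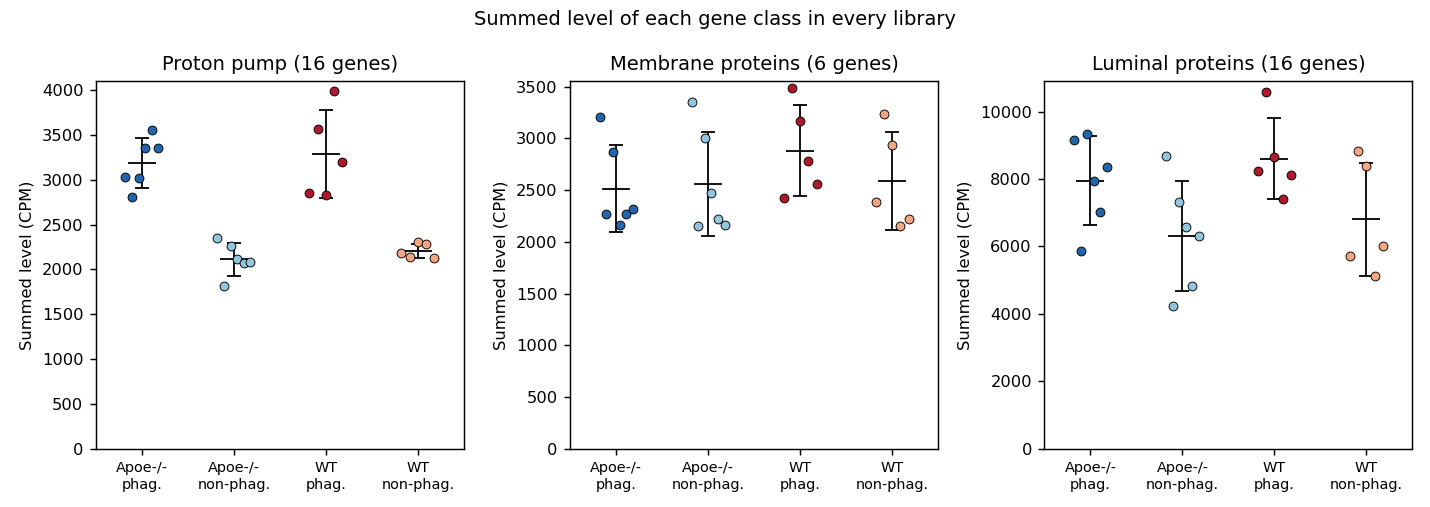
Summed level in CPM (y axis) of the 16 proton pump, 6 membrane and 16 luminal genes in each library, by group (x axis; phag., phagocytic; non-phag., non-phagocytic); points are libraries, bars the mean ± SD over 6 Apoe-/- or 5 wild-type (WT) libraries. In CPM the pump sums of phagocytic and non-phagocytic libraries do not overlap in either genotype, while the membrane and luminal sums do. Summed as TPM without TMM scaling, the pump genes overlap in both genotypes. Laptm5 makes up most of the membrane sum.

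Gene by gene, the effect of the sort averaged over the genotypes passed the threshold, an adjusted p under 0.05 in edgeR's quasi-likelihood test (Benjamini-Hochberg over all genes), for 13 of the 38 members. All 13 rose in phagocytic cells and none fell, where 1.8% of all genes tested rose and 0.564% fell. The members and the lists below were chosen with earlier results of these data known. Their shares beside those of all genes are therefore a description and not a test. Among the 6049 genes with a mean of at least 25 CPM, which hold every member except Atp6v0d2, 3.11% rose. By class, 9 of 16 pump genes rose (Atp6v0c, Atp6v0d1, Atp6v0e, Atp6v1c1, Atp6v1d, Atp6v1e1, Atp6v1g1, Atp6v1h and Atp6ap2), 1 of 6 membrane genes (Lamp1) and 3 of 16 luminal genes (Npc2, Lipa and Grn). At an unadjusted p under 0.05, 28 members were higher (8.01% of all genes) and 1, Gm2a, lower (6.48%). The estimate was above 0 for 34 members, against 47.7% of all genes, and the median log2 fold change was 0.55 for the pump, 0.39 for the membrane genes and 0.39 for the luminal genes, against -0.02 for all genes tested. In edgeR's test the calls of Atp6v1c1 (adjusted p = 0.0476) and Lipa (0.0465) lay closest to the threshold and were lost under 30 and 28 of 37 other settings. On log2 of the deposited FPKM and TPM values (pseudocount 1), limma called 3 and 1 members, all higher in phagocytic cells.

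**Figure D2:**
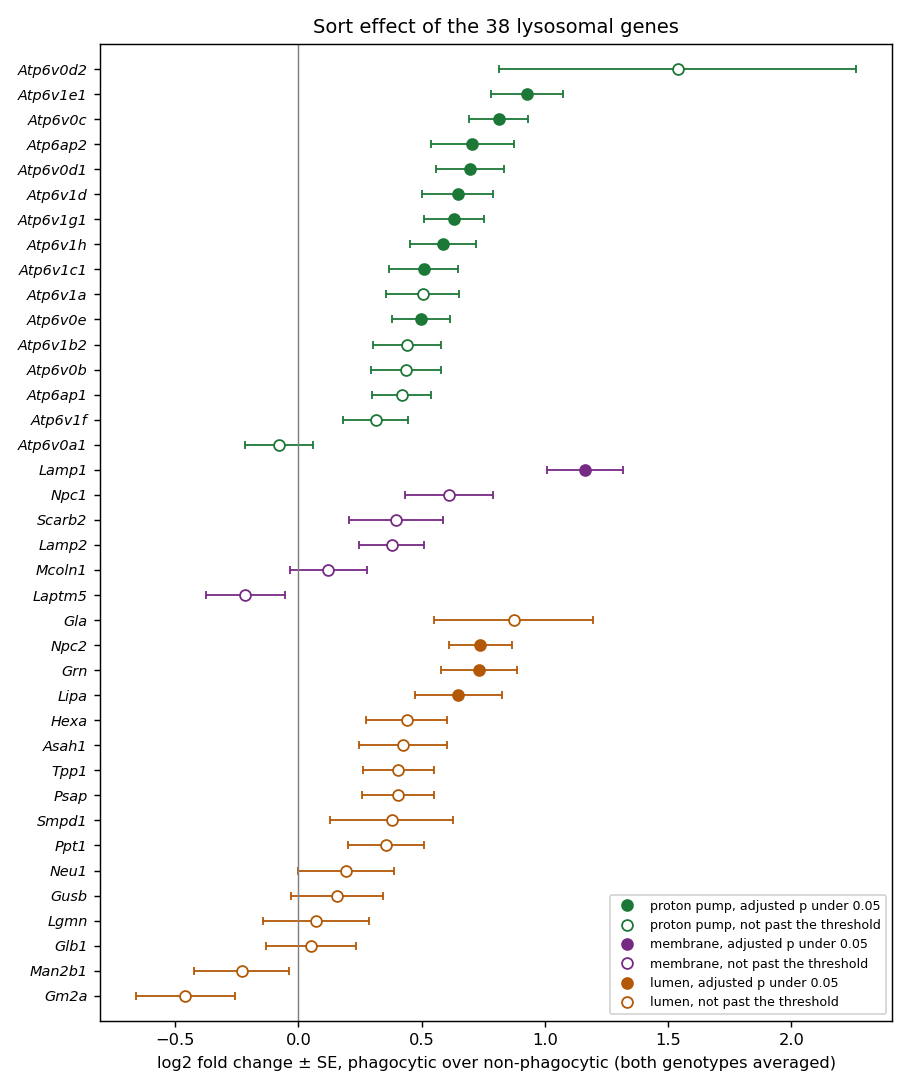
Log2 fold change ± SE of phagocytic over non-phagocytic cells, averaged over both genotypes (x axis), for the 38 genes (y axis), coloured by class; filled points passed an adjusted p of 0.05 in edgeR's quasi-likelihood test. Filled are 9 pump genes, Lamp1, Npc2, Grn and Lipa, and no gene is filled left of 0.

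Some genes listed as markers of border-associated macrophages, monocytes or dendritic cells also differed between the sorts. Their counts are to be set against 1.8% of all genes that rose and 0.564% that fell. Of 12 markers of border-associated macrophages, 10 could be tested and 7 rose in phagocytic cells (Mrc1, Lyve1, Pf4, F13a1, Stab1, Ms4a7 and Folr2). Lyve1 and Folr2 were low, with group means of 11.3 CPM or less. The summed level of the 12 was 651 to 1284 CPM in phagocytic Apoe-/- pools and 362 to 552 CPM in non-phagocytic Apoe-/- pools, and 774 to 1386 CPM in phagocytic wild-type pools and 423 to 541 CPM in non-phagocytic wild-type pools. In wild-type cells 1 of these 12, Cd209f, had no read. Of 12 monocyte markers, 3 rose (Lyz2, Vcan and Clec4e), and the sum was 2554 to 4708 CPM in phagocytic Apoe-/- pools and 816 to 2093 CPM in non-phagocytic Apoe-/- pools, and 4190 to 10870 CPM in phagocytic wild-type pools and 1341 to 6949 CPM in non-phagocytic wild-type pools, with none of the 12 at 0 throughout a group. Lyz2 had the highest mean of the 12 in every group, and it made up most of that sum in phagocytic pools only. Its mean was 2409 CPM in phagocytic Apoe-/- pools and 605 CPM in non-phagocytic Apoe-/- pools. In wild-type mice Lyz2 averaged 5107 CPM in phagocytic pools and 1342 CPM in non-phagocytic pools. The means of 5 of the 12, among them Ccr2, Plac8, S100a4 and S100a6, were lower in phagocytic cells in both genotypes without passing, as was that of the border macrophage marker Clec10a. Of 7 dendritic cell markers, 2 fell (H2-DMb2 and Btla), and the summed level was 37.2 to 119 CPM in phagocytic Apoe-/- pools and 96.6 to 227 CPM in non-phagocytic Apoe-/- pools, and 26.7 to 99.2 CPM in phagocytic wild-type pools and 64.7 to 522 CPM in non-phagocytic wild-type pools. Btla had no read in wild-type phagocytic cells. These marker changes run alongside every lysosomal gene called here, and their part in the result was not tested.

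Within the V0 sector, Atp6v0c, the c subunit that forms the proton-carrying ring (chromosome 17, 24163866 to 24169702; positions here are from GENCODE vM21 on GRCm38), was the most abundant pump gene, with a mean of 601 TPM over all libraries (TPM corrects for transcript length, and so compares genes). It stood at 668, 829.9 and 1050 CPM in Apoe-/- phagocytic pools (lowest, median, highest), against 441, 505 and 539 CPM in Apoe-/- non-phagocytic pools. In wild-type mice Atp6v0c had 818, 925, 815, 1353 and 923 CPM in phagocytic pools, against 444, 489, 556, 635 and 525.6 CPM in non-phagocytic pools. The sorts did not overlap in either genotype, and the averaged log2 fold change was 0.81 ± 0.12 (SE; edgeR adjusted p = 0.0002). The annotation also holds 2 pseudogenes of Atp6v0c, so its estimated counts are uncertain.

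Atp6v0d1 (chromosome 8, 105524465 to 105566047), the d subunit that links the membrane ring to the stalk of the pump, was found at 86.9, 103 and 109 CPM in Apoe-/- phagocytic pools (lowest, median, highest), against 45.2, 53.0 and 62.2 CPM in Apoe-/- non-phagocytic pools, without overlap. In wild-type mice Atp6v0d1 had 60.1, 75.0, 75.5, 128 and 80.4 CPM in phagocytic pools, against 83.8, 40.0, 60.8, 62.9 and 54.6 CPM in non-phagocytic pools, and these overlapped. The averaged log2 fold change was 0.70 ± 0.14 (edgeR adjusted p = 0.00474). The second d isoform, Atp6v0d2, best known from osteoclasts, was near the limit of detection, with a median of 2 reads a library. Its level was 0, 0.697 and 15.1 CPM in Apoe-/- phagocytic pools (lowest, median, highest), against 0.611, 1.66 and 6.92 CPM in Apoe-/- non-phagocytic pools. In wild-type mice Atp6v0d2 had 0, 13.5, 4.29, 5.13 and 4.44 CPM in phagocytic pools, against 1.41, 0.374, 0.373, 3.79 and 0.433 CPM in non-phagocytic pools. Its averaged log2 fold change, 1.54 ± 0.72, did not pass (edgeR adjusted p = 0.321).

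Atp6v0e, a small membrane subunit, had 127, 162 and 178 CPM in Apoe-/- phagocytic pools (lowest, median, highest), against 93.7, 114 and 144 CPM in Apoe-/- non-phagocytic pools. In wild-type mice Atp6v0e had 174, 236, 155, 201 and 159 CPM in phagocytic pools, against 150.1, 121, 108, 134 and 102 CPM in non-phagocytic pools. The sorts overlapped in Apoe-/- mice and not in wild-type mice, and the averaged log2 fold change was 0.50 ± 0.12 (edgeR adjusted p = 0.0188).

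Atp6v0a1, an isoform of the large a subunit that couples rotation to proton transfer, had the largest p of the pump genes. Its level was 72.7, 78.8 and 102 CPM in Apoe-/- phagocytic pools (lowest, median, highest), against 54.7, 80.6 and 106 CPM in Apoe-/- non-phagocytic pools. In wild-type mice Atp6v0a1 had 73.4, 70.8, 58.7, 106 and 108 CPM in phagocytic pools, against 80.3, 98.0, 97.3, 85.1 and 112 CPM in non-phagocytic pools, and the sorts overlapped widely in both genotypes. The averaged log2 fold change was -0.08 ± 0.14 (edgeR adjusted p = 0.872), the only pump estimate below 0. The remaining V0 gene, Atp6v0b, coding for a proteolipid of the ring, had an estimate of 0.44 ± 0.14 that did not pass (edgeR adjusted p = 0.109).

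In the V1 sector, Atp6v1e1 (chromosome 6, 120794305 to 120822793), a subunit of the peripheral stalks that hold the head in place, showed the largest called change of the pump. It stood at 89.7, 106 and 146 CPM in Apoe-/- phagocytic pools (lowest, median, highest), against 40.5, 60.2 and 69.2 CPM in Apoe-/- non-phagocytic pools. In wild-type mice Atp6v1e1 had 101, 117, 87.9, 117 and 114 CPM in phagocytic pools, against 40.2, 45.6, 44.4, 72.6 and 87.5 CPM in non-phagocytic pools. The highest non-phagocytic library, 87.5 CPM in wild type, stood just under the lowest wild-type phagocytic one, 87.9 CPM, so neither genotype showed an overlap. The averaged log2 fold change was 0.93 ± 0.15 (edgeR adjusted p = 0.000421).

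Atp6v1g1, its partner in the stalks, measured 135, 174 and 199 CPM in Apoe-/- phagocytic pools (lowest, median, highest), against 92.5, 107 and 149 CPM in Apoe-/- non-phagocytic pools. In wild-type mice Atp6v1g1 had 153, 226, 139, 181 and 139.9 CPM in phagocytic pools, against 105, 100.2, 107, 126 and 96.2 CPM in non-phagocytic pools. These wild-type groups did not overlap and the Apoe-/- ones did, with an averaged log2 fold change of 0.63 ± 0.12 (edgeR adjusted p = 0.00384). Atp6v1d, part of the central rotor, reached 55.9, 69.1 and 79.9 CPM in Apoe-/- phagocytic pools (lowest, median, highest), against 25.2, 40.6 and 54.7 CPM in Apoe-/- non-phagocytic pools. In wild-type mice Atp6v1d had 62.9, 61.1, 52.3, 73.2 and 67.1 CPM in phagocytic pools, against 49.3, 36.6, 36.9, 33.6 and 62.0 CPM in non-phagocytic pools. Here the Apoe-/- sorts were apart, 55.9 CPM being the lowest phagocytic and 54.7 CPM the highest non-phagocytic value, and the wild-type sorts overlapped; the averaged log2 fold change was 0.65 ± 0.14 (edgeR adjusted p = 0.0138).

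Atp6v1h, a regulatory subunit, had 54.0, 82.6 and 105 CPM in Apoe-/- phagocytic pools (lowest, median, highest), against 39.8, 52.2 and 66.7 CPM in Apoe-/- non-phagocytic pools. In wild-type mice Atp6v1h had 83.5, 80.4, 65.2, 59.9 and 68.0 CPM in phagocytic pools, against 47.9, 45.2, 50.7, 45.0 and 62.0 CPM in non-phagocytic pools. In each genotype 1 phagocytic pool lay among the non-phagocytic ones, and the averaged log2 fold change was 0.59 ± 0.13 (edgeR adjusted p = 0.0154). Atp6v1c1, which comes off when V1 is released from V0, had 126, 150.3 and 181 CPM in Apoe-/- phagocytic pools (lowest, median, highest), against 98.3, 129 and 143 CPM in Apoe-/- non-phagocytic pools. In wild-type mice Atp6v1c1 had 156, 200.1, 123, 166 and 131 CPM in phagocytic pools, against 66.9, 112, 132, 61.3 and 80.6 CPM in non-phagocytic pools. The sorts overlapped in both genotypes, and the averaged log2 fold change was 0.51 ± 0.14 (edgeR adjusted p = 0.0476). The catalytic A subunit Atp6v1a (0.50 ± 0.15), the nucleotide-binding B subunit Atp6v1b2 (0.44 ± 0.14) and the rotor subunit Atp6v1f (0.31 ± 0.13) had averaged log2 fold changes above 0 that did not pass, with edgeR adjusted p of 0.0703, 0.0886 and 0.246.

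Of the accessory proteins, Atp6ap2, also known as the prorenin receptor, passed. Its level was 229.9, 255 and 334 CPM in Apoe-/- phagocytic pools (lowest, median, highest), against 57.1, 144 and 224 CPM in Apoe-/- non-phagocytic pools. In wild-type mice Atp6ap2 had 265, 256, 295, 231 and 297 CPM in phagocytic pools, against 148, 206, 227, 130.1 and 170.3 CPM in non-phagocytic pools. Neither genotype showed an overlap, and the averaged log2 fold change was 0.71 ± 0.17 (edgeR adjusted p = 0.0209). Atp6ap1, an assembly factor, did not pass, at 0.42 ± 0.12 (edgeR adjusted p = 0.0647), although its wild-type sorts did not overlap (298 to 404 CPM in phagocytic pools and 224 to 266 CPM in non-phagocytic pools).

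Lamp1 (chromosome 8, 13159161 to 13175338), one of the heavily glycosylated proteins that coat the inner face of the lysosomal membrane, had the largest averaged log2 fold change of any called member. It had 204, 337 and 559 CPM in Apoe-/- phagocytic pools (lowest, median, highest), against 149.6, 193 and 198 CPM in Apoe-/- non-phagocytic pools. In wild-type mice Lamp1 had 392, 446, 532, 708 and 497 CPM in phagocytic pools, against 231, 179, 177, 216 and 219 CPM in non-phagocytic pools. The sorts did not overlap in either genotype, and the averaged log2 fold change was 1.16 ± 0.15 (edgeR adjusted p = 5.75e-05), a call kept under all 37 other settings. The closely related Lamp2, also needed for chaperone-mediated autophagy, differed less. Its level was 321, 340.4 and 405 CPM in Apoe-/- phagocytic pools (lowest, median, highest), against 189.9, 234 and 348 CPM in Apoe-/- non-phagocytic pools. In wild-type mice Lamp2 had 346, 305, 355, 317 and 325 CPM in phagocytic pools, against 206, 348, 324, 208 and 219.7 CPM in non-phagocytic pools. The sorts overlapped in both genotypes, with phagocytic libraries in a narrow band (305 to 405 CPM) and non-phagocytic libraries spread over 189.9 to 348 CPM, and the averaged log2 fold change of 0.38 ± 0.13 did not pass (edgeR adjusted p = 0.14).

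**Figure D3:**
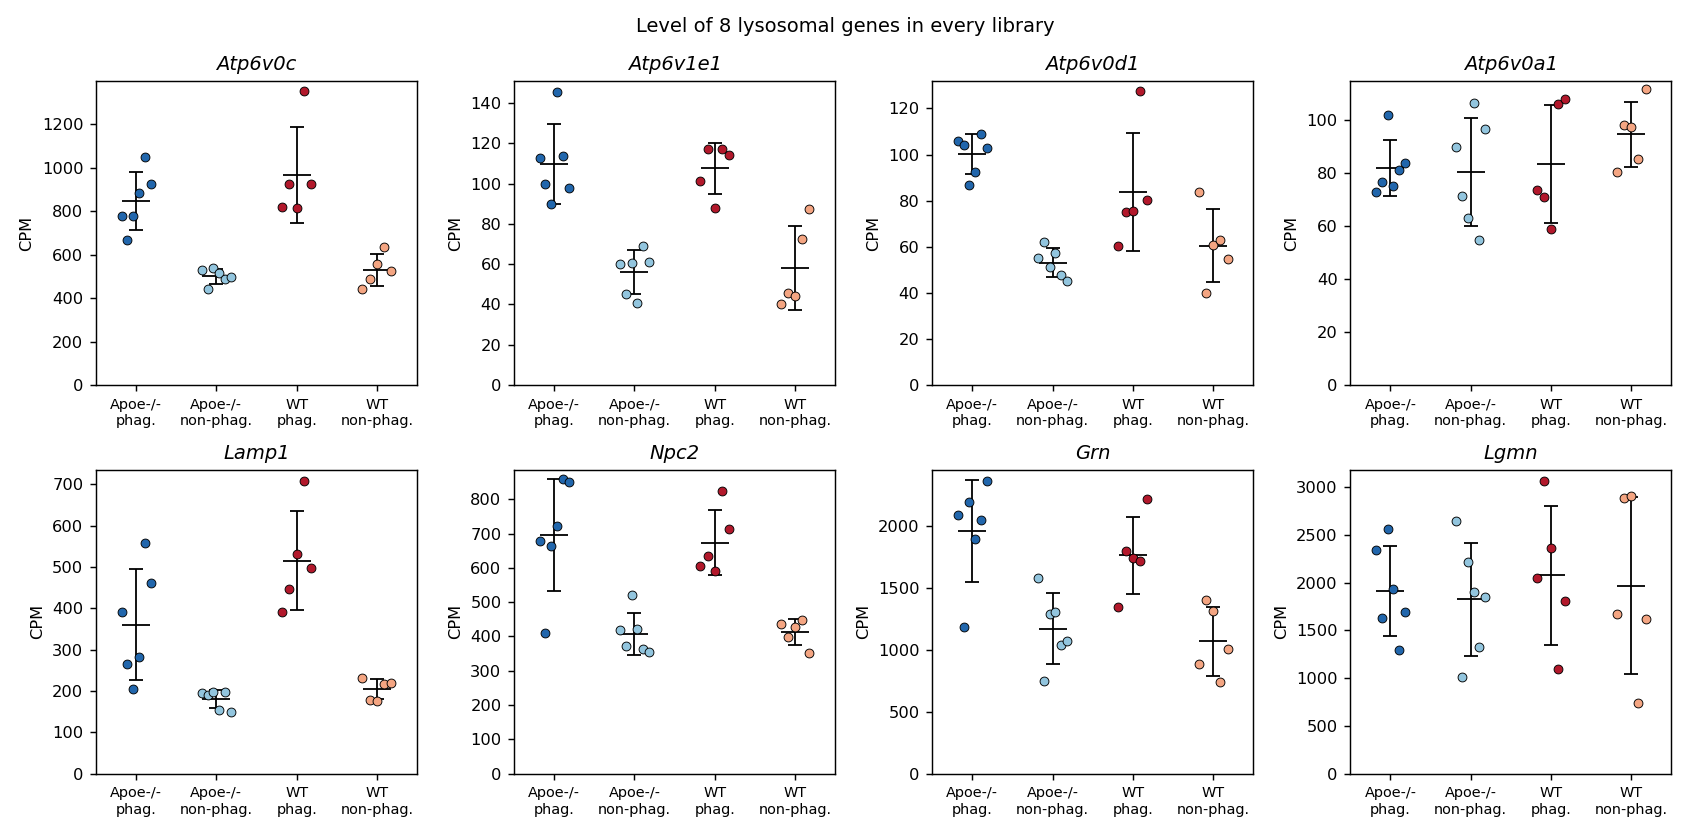
Level in CPM (y axis) of 4 pump genes (Atp6v0c, Atp6v1e1, Atp6v0d1 and Atp6v0a1), Lamp1 and 3 luminal genes (Npc2, Grn and Lgmn) in each library by group (x axis); points are libraries, bars the mean ± SD over 6 Apoe-/- or 5 wild-type (WT) libraries. Phagocytic libraries stand above non-phagocytic ones for Atp6v0c, Atp6v1e1 and Lamp1 in both genotypes, while Atp6v0a1 and Lgmn overlap.

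Npc1, which passes cholesterol out of the lysosome, did not pass the test. It was present at 35.1, 86.5 and 106 CPM in Apoe-/- phagocytic pools (lowest, median, highest), against 45.4, 55.8 and 64.8 CPM in Apoe-/- non-phagocytic pools. In wild-type mice Npc1 had 55.8, 56.6, 70.7, 106 and 108 CPM in phagocytic pools, against 38.05, 66.2, 32.8, 65.0 and 45.5 CPM in non-phagocytic pools. The sorts overlapped, and the averaged log2 fold change was 0.61 ± 0.18 (edgeR adjusted p = 0.0694). Mcoln1, a calcium channel of the lysosome, did not pass either, at 0.12 ± 0.16 (edgeR adjusted p = 0.812). It had 45.1, 73.9 and 99.5 CPM in Apoe-/- phagocytic pools (lowest, median, highest), against 46.9, 62.0 and 83.03 CPM in Apoe-/- non-phagocytic pools. In wild-type mice Mcoln1 had 56.2, 100.1, 71.2, 64.2 and 86.2 CPM in phagocytic pools, against 64.1, 90.5, 58.9, 77.5 and 78.0 CPM in non-phagocytic pools, and the sorts overlapped in both genotypes.

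Laptm5, a lysosomal protein of blood cells and microglia, was the most abundant of the 38 genes at 1121 TPM, and more than any other gene made up the membrane sum. It had 1066, 1402 and 2129 CPM in Apoe-/- phagocytic pools (lowest, median, highest), against 1485, 1749 and 2546 CPM in Apoe-/- non-phagocytic pools. In wild-type mice Laptm5 had 1488, 2427, 2008, 1487 and 1455 CPM in phagocytic pools, against 1779, 2462, 2247, 1475 and 1579 CPM in non-phagocytic pools. The sorts overlapped in both genotypes, with an averaged log2 fold change of -0.21 ± 0.16 (edgeR adjusted p = 0.605). Scarb2, the receptor that carries glucocerebrosidase to the lysosome, had an estimate of 0.40 ± 0.19 (edgeR adjusted p = 0.335).

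The promoters of these genes are shown because Lamp1 and part of the pump genes carry the letters CACGTG, the core of the element read by the MiT/TFE transcription factors, which drive lysosomal genes. Windows of 300 bases, 250 before to 50 after a start site, were taken from RefSeq (GRCm38.p6) and were at hand for 31 of the 38 genes. The letters, which read the same on both strands, occurred in 9 of 31 members (29.0%), and in 2187 of 27025 genes of the whole table (8.09%). All 9 also held TCACGTG on either strand, which contains the shorter motif, as did 4.29% of all genes. By class, CACGTG was in 4 of 11 pump, 2 of 5 membrane and 3 of 15 luminal genes, and it was in 3 of 10 genes called higher in phagocytic cells (30.0%; Atp6v0d1, Atp6v0e and Lamp1) and in 6 of 21 that were not called (28.6%). Each stretch below runs 5′ to 3′ along the gene's strand over 110 bases, 100 before and 10 after the start, with CACGTG in capitals.
Lamp1, chr8:13159061-13159170, plus strand: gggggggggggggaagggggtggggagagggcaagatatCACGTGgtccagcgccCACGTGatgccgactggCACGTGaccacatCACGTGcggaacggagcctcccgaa
Mcoln1, chr8:3500419-3500528, plus strand: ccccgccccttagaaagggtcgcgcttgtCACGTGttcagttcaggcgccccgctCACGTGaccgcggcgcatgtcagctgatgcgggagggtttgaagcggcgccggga
Atp6v0b, chr4:117887320-117887429, minus strand: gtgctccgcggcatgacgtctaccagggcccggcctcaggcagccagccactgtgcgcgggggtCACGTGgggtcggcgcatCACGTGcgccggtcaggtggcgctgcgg
Atp6v0d1, chr8:105566055-105566164, minus strand: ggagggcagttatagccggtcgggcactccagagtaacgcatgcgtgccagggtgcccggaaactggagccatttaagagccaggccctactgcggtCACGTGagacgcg
Atp6v0c, chr17:24169441-24169550, minus strand: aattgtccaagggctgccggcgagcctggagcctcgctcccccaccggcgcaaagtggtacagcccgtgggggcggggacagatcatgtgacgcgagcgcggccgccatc
Atp6v1e1, chr6:120822689-120822798, minus strand: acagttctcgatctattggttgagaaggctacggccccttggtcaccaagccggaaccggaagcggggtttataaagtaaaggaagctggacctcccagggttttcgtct

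In Lamp1, the gene with the largest called change, the 4 copies began 61, 45, 28 and 15 bases before the start. Mcoln1, which did not pass the test, had 2 copies (71 and 45 bases before), and so had Atp6v0b, which did not pass (36 and 18 bases before). Atp6v0d1, which rose, had 1 copy 3 bases before the start. Atp6v0c and Atp6v1e1, the pump genes of smallest p, had none in these windows. The windows at the other start sites of Atp6v0c held none either. A match of letters describes the sequence and is not evidence of a bound site. The genes for the factors themselves did not pass the test, with averaged log2 fold changes of 0.36 ± 0.25 for Tfeb, 0.09 ± 0.11 for Tfe3, 0.75 ± 0.27 for Mitf and 1.86 ± 0.55 for Tfec (edgeR adjusted p = 0.568, 0.786, 0.153 and 0.0703).

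Among luminal genes, Npc2 (chromosome 12, 84754562 to 84773152), the cholesterol-binding protein that hands its load to Npc1, had the smallest p. It stood at 409, 699 and 859 CPM in Apoe-/- phagocytic pools (lowest, median, highest), against 354, 395 and 519.7 CPM in Apoe-/- non-phagocytic pools, where 1 phagocytic pool lay among the non-phagocytic ones. In wild-type mice Npc2 had 606, 636, 590.4, 823 and 712 CPM in phagocytic pools, against 437, 398, 429, 449 and 352 CPM in non-phagocytic pools, without overlap. The averaged log2 fold change was 0.74 ± 0.13 (edgeR adjusted p = 0.00112). Grn (chromosome 11, 102430315 to 102437048), coding for progranulin, which is cut into granulins in the lysosome, followed. It had 1186, 2070 and 2364 CPM in Apoe-/- phagocytic pools (lowest, median, highest), against 751, 1180 and 1582 CPM in Apoe-/- non-phagocytic pools. In wild-type mice Grn had 1349, 1798, 1742, 1716 and 2223 CPM in phagocytic pools, against 884, 1401, 1312, 744 and 1007 CPM in non-phagocytic pools. In each genotype 1 phagocytic pool lay among the non-phagocytic ones, and the averaged log2 fold change was 0.73 ± 0.15 (edgeR adjusted p = 0.00761). The low Apoe-/- phagocytic pool was pool 2 for Npc2 (409 CPM), Grn (1186 CPM) and Atp6v1h (54.0 CPM).

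Lipa, the acid lipase that frees cholesterol and fatty acids from lipoproteins, was called with little margin. It had 94.6, 128 and 194 CPM in Apoe-/- phagocytic pools (lowest, median, highest), against 37.8, 87.3 and 111 CPM in Apoe-/- non-phagocytic pools. In wild-type mice Lipa had 186, 230.0, 152, 127 and 102 CPM in phagocytic pools, against 66.9, 137, 119, 90.5 and 113 CPM in non-phagocytic pools. The sorts overlapped in both genotypes, and the averaged log2 fold change was 0.65 ± 0.18 (edgeR adjusted p = 0.0465).

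Lgmn, the asparagine endopeptidase legumain, was the most abundant luminal gene at 1010 TPM, and its change did not pass. It had 1290, 1816 and 2561 CPM in Apoe-/- phagocytic pools (lowest, median, highest), against 1007, 1875 and 2642 CPM in Apoe-/- non-phagocytic pools. In wild-type mice Lgmn had 2049, 3064, 2357, 1093 and 1806 CPM in phagocytic pools, against 1675, 2889, 2904, 744 and 1614 CPM in non-phagocytic pools. The sorts overlapped in both genotypes, and the averaged log2 fold change was 0.07 ± 0.21 (edgeR adjusted p = 0.931). Glb1, beta-galactosidase, gave 0.05 ± 0.18 (edgeR adjusted p = 0.947). Its level was 43.2, 56.8 and 88.9 CPM in Apoe-/- phagocytic pools (lowest, median, highest), against 46.5, 52.0 and 76.8 CPM in Apoe-/- non-phagocytic pools. In wild-type mice Glb1 had 69.5, 33.5, 56.2, 42.8 and 62.2 CPM in phagocytic pools, against 26.8, 81.1, 66.4, 42.3 and 50.7 CPM in non-phagocytic pools, and all groups overlapped.

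Of the other 11 luminal genes, 9 had estimates above 0 and 2 below, and none passed. The glycosidases gave 0.87 ± 0.32 for Gla, 0.44 ± 0.16 for Hexa, 0.19 ± 0.19 for Neu1 (a sialidase), 0.16 ± 0.19 for Gusb and -0.23 ± 0.19 for Man2b1. The lipid enzymes gave 0.42 ± 0.18 for Asah1 (acid ceramidase), 0.38 ± 0.25 for Smpd1 (acid sphingomyelinase) and 0.35 ± 0.15 for Ppt1, which removes palmitate from proteins. Tpp1, a peptidase, gave 0.41 ± 0.15. Of the non-enzymes that present lipids to hydrolases, Psap gave 0.40 ± 0.14 and Gm2a, the activator of GM2 ganglioside breakdown, gave -0.46 ± 0.20, the lowest of all members (edgeR adjusted p = 0.269). Their adjusted p lay between 0.158 (Tpp1) and 0.785 (Gusb).

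Within single genotypes fewer members passed, all of them higher in phagocytic cells. In Apoe-/- cells 5 of 38 rose, where 0.403% of all genes did. They were Lamp1 (0.99 ± 0.21), Atp6v1e1 (0.97 ± 0.20), Atp6v0d1 (0.92 ± 0.19), Npc2 (0.77 ± 0.17) and Atp6v0c (0.76 ± 0.16; log2 fold change ± SE), with edgeR adjusted p of 0.0218, 0.0205, 0.0205, 0.0333 and 0.0244. In wild-type cells 2 of 38 rose, where 0.193% of all genes did, Lamp1 (1.33 ± 0.23; edgeR adjusted p = 0.00694) and Atp6v0c (0.87 ± 0.18; 0.0268). None fell in either genotype, where 0.0644% of all genes fell in Apoe-/- cells and 0.0161% in wild-type cells. At an unadjusted p under 0.05, 20 members were higher (5.49% of all genes) and 1, Gm2a, lower (4.45%) in Apoe-/- cells, and 17 higher (4.6%) and 0 lower (3.14%) in wild-type cells. The Apoe-/- count rested on single libraries: it was 0 without phagocytic pool 5, 0 without non-phagocytic pools 2 and 5 together and 1 without non-phagocytic pool 4 or 6, and was 2 or 3 without phagocytic pool 1, 4 or 6 or non-phagocytic pool 2 or 5 alone. In wild type the count was 1 without phagocytic pool 2, 4 or 5 or non-phagocytic pool 1, 2 or 3, and 1 without pool 4 of both sorts.

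Members whose sorts did not overlap in CPM were counted without a test. Phagocytic cells were higher throughout for 6 members in Apoe-/- mice (Atp6v0c, Atp6v0d1, Atp6v1d, Atp6v1e1, Atp6ap2 and Lamp1; 0.524% of all genes) and for 8 in wild-type mice (Atp6v0c, Atp6v0e, Atp6v1e1, Atp6v1g1, Atp6ap1, Atp6ap2, Lamp1 and Npc2; 1.51% of all genes). Atp6v0c, Atp6v1e1, Atp6ap2 and Lamp1 did so in both genotypes, as did 0.177% of all genes. Phagocytic cells were lower throughout for 0 members in either genotype, against 0.346% of all genes in Apoe-/- and 0.636% in wild-type mice.

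No difference between the genotypes was detected for any member. The sort effect was above 0 for 35 members in Apoe-/- mice (47.7% of all genes), for 33 in wild-type mice (49.2%) and for the same 33 in both (30.3%), and below 0 in both for Laptm5, Man2b1 and Gm2a. Between Apoe-/- and wild-type phagocytic cells 0 of 38 passed (0.00805% of all genes were higher and 0.0242% lower), the smallest edgeR adjusted p being 0.525. At an unadjusted p under 0.05, 0 were higher (2.43% of all genes) and 2 lower (4.19%), Gm2a (-0.84 ± 0.28) and Lamp1 (-0.52 ± 0.21; log2 fold change ± SE, Apoe-/- over wild type). Gm2a averaged 197 ± 74.8 CPM in Apoe-/- and 355 ± 93.3 CPM in wild-type phagocytic cells (SD, n = 6 and 5). Between non-phagocytic cells 0 of 38 passed (0% of all genes were higher and 0.0161% lower; smallest edgeR adjusted p 0.999), and at an unadjusted p under 0.05, 2 were higher (1.78% of all genes), Atp6v1a (0.49 ± 0.21) and Atp6v1c1 (0.47 ± 0.20), and 0 lower (2.02%). The test of the difference in the sort effect between the genotypes called 0 of 38 and 0% of all genes, and at an unadjusted p under 0.05 again 0 of 38 (1.12% of all genes higher and 1.3% lower). DESeq2 called 0 members in each of these comparisons as well. The estimated difference for a member ran from -1.20 to 0.93 on the log2 scale with SE of 0.23 to 1.44, so that a difference within these errors was not detectable.

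**Figure D4:**
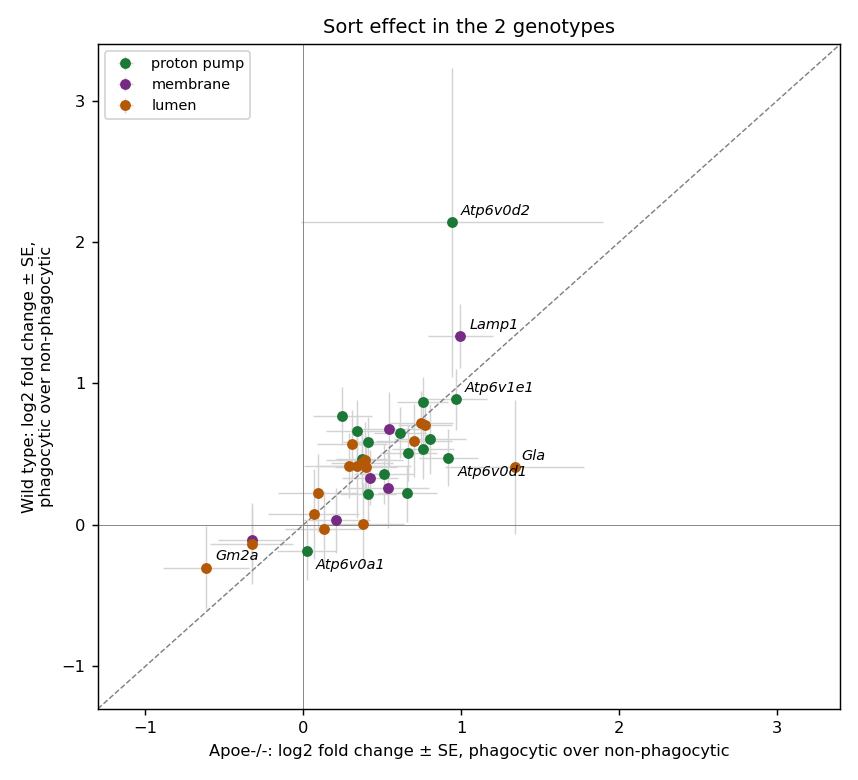
Log2 fold change ± SE of phagocytic over non-phagocytic cells in Apoe-/- mice (x axis) and in wild-type mice (y axis) for the 38 genes, coloured by class; the dashed line marks equal values. In both genotypes 33 genes lie above 0 and 3 below 0, and 2, Atp6v0a1 and Glb1, have opposite signs.

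Other genes of the pathway were read from further lists, to be set against 1.8% of all genes that rose, 0.564% that fell, 8.01% higher and 6.48% lower at an unadjusted p under 0.05, and a median of -0.02. Of 18 other pump genes, further isoforms and assembly factors, 12 could be tested and 0 passed in the averaged sort effect by edgeR, 3 being higher and 0 lower at an unadjusted p under 0.05 (median log2 fold change 0.17). Of these 12 estimates, 8 were above 0 (47.7% of all genes). The other a isoforms tested gave 0.14 ± 0.13 for Tcirg1 and -0.12 ± 0.17 for Atp6v0a2, and the e isoform Atp6v0e2 gave -0.22 ± 0.18. Of 25 other lysosomal membrane genes, 4 rose and 0 fell, and 11 were higher and 1 lower at an unadjusted p under 0.05 (median 0.27). Those that rose were the tetraspanin Cd63 (0.82 ± 0.15, edgeR adjusted p = 0.00178), the macrophage glycoprotein Cd68 (0.61 ± 0.16, 0.0355), the potassium and proton channel Tmem175 (0.80 ± 0.19, 0.0224) and Tmem192 (1.07 ± 0.29, 0.049). Of 29 other luminal genes, 4 rose and 1 fell, and 15 were higher and 1 lower at an unadjusted p under 0.05 (median 0.33). The exonuclease Pld3 rose most (1.03 ± 0.14, edgeR adjusted p = 8.11e-05) and was also called within each genotype, while Cd63 had 0.93 ± 0.20 in Apoe-/- cells (edgeR adjusted p = 0.0245) and 0.70 ± 0.22 in wild-type cells (edgeR adjusted p = 0.272). The test of the difference between these 2 estimates did not pass (0.23 ± 0.29, edgeR unadjusted p = 0.44). Scpep1, a serine carboxypeptidase (0.70 ± 0.15), and Dnase2a, which digests DNA in the lysosome (0.72 ± 0.16), were among the others that rose, while the sulfatase Arsb fell (-0.99 ± 0.27, 0.0495). Of 9 genes that bring enzymes to the lysosome, 2 rose, the mannose 6-phosphate receptor M6pr (0.56 ± 0.14) and Cln8 (0.73 ± 0.19), and 4 were higher and 0 lower at an unadjusted p under 0.05. Of 12 genes of nutrient sensing on its surface 1 rose, Lamtor1 (0.64 ± 0.15), and again 4 were higher and 0 lower at an unadjusted p under 0.05.

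Transcripts of the members were compared in the 18 genes that had at least 50 reads a library on average and at least 2 transcripts with 10% or more of them, by the share of the gene's reads on its leading transcript, in a 2-sided permutation test (100000 resamples, Benjamini-Hochberg adjustment over the 18). The other members were not tested, among them Atp6v0c. Its coding transcript Atp6v0c-201 averaged 94.5 ± 1.52% of its reads in phagocytic and 86.1 ± 4.67% in non-phagocytic libraries (SD, n = 11 each). Among the 18, the share of the leading transcript differed for Npc2 and Neu1 and for none of the other 16. For Npc2-201, the coding transcript, it was 69.7%, 75.0% and 81.4% (lowest, median, highest) in Apoe-/- phagocytic and 54.3%, 68.8% and 84.1% in Apoe-/- non-phagocytic libraries. It was 75.3%, 80.9%, 77.9%, 79.0% and 78.5% in wild-type phagocytic, against 61.9%, 71.4%, 72.3%, 72.6% and 62.6% in wild-type non-phagocytic libraries. The sorts stood apart in wild-type mice and overlapped in Apoe-/- mice, and over the genotypes the share averaged 76.9 ± 3.39% in phagocytic and 68.5 ± 7.78% in non-phagocytic libraries (SD, n = 11 each; permutation test, adjusted p = 0.0279).

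For Neu1-201, from 45 to 316 reads of the gene a library, the share was 71.2%, 81.7% and 94.5% in Apoe-/- phagocytic and 0%, 59.0% and 100% in Apoe-/- non-phagocytic libraries (lowest, median, highest). It was 75.7%, 93.0%, 68.9%, 86.6% and 91.9% in wild-type phagocytic, against 46.5%, 63.1%, 62.9%, 65.6% and 74.1% in wild-type non-phagocytic libraries, with a slight overlap. The means were 82.8 ± 9.18% in phagocytic and 59.3 ± 24.5% in non-phagocytic libraries (SD, n = 11 each; permutation test, adjusted p = 0.0279). Nearly all other reads of both genes were given to transcripts annotated as keeping an intron, Npc2-203 and Neu1-202. Within genotypes, exact permutation tests gave p = 0.145 for Npc2 and 0.0758 for Neu1 in Apoe-/- mice (n = 6 each), and p = 0.00794 and 0.0159 in wild-type mice (n = 5 each). Without Apoe-/- non-phagocytic pools 2 and 5, the pools richest in satellite-like reads, the differences were 6.38 points for Npc2 and 15.6 points for Neu1, against 8.35 and 23.5 points with all libraries, and neither passed (permutation test over 11 and 9 libraries, p = 0.012 and 0.00998, adjusted p = 0.108 for both).

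Over all genes, the share of reads on retained-intron transcripts did not overlap between the sorts in wild-type mice and overlapped in Apoe-/- mice, at 5.48% to 6.96% in phagocytic Apoe-/- pools and 4.97% to 8.23% in non-phagocytic Apoe-/- pools, and at 6.11% to 6.57% in phagocytic wild-type pools and 6.66% to 8.47% in non-phagocytic wild-type pools. Its part in the 2 results was not tested. Summing only transcripts annotated as protein coding, 11 members were called in the averaged sort effect, Atp6v1c1 and Lipa being lost.

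**Figure D5:**
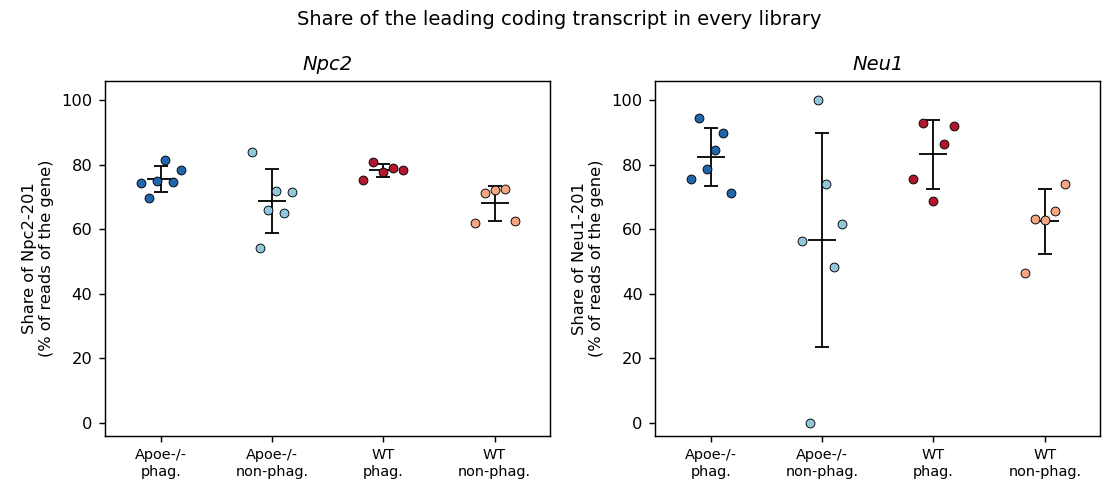
Share of the gene's estimated reads on Npc2-201 (left) and Neu1-201 (right) in percent (y axis) in each library by group (x axis); points are libraries, bars the mean ± SD over 6 Apoe-/- or 5 wild-type (WT) libraries. Phagocytic libraries lie within 69.7% to 81.4% for Npc2-201 and 68.9% to 94.5% for Neu1-201, and non-phagocytic libraries spread further in both directions, over 54.3% to 84.1% and 0% to 100%.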

How the data were processed

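RNA of sorted retinal microglia was sequenced in 22 libraries (6, 6, 5 and 5 in the 4 groups). The authors deposited, for each library, estimated counts (reads) per transcript and TPM, in the column layout that Salmon writes, and a series table of FPKM per gene. Salmon 1.4.0, R 4.0.3, DESeq2 1.30.1 and build mm10 are named, without roles, in the submitters' processing notes. For trimming and read filters, the sources used here give nothing. No column of another series was used.

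Estimated counts of 116072 of 116248 transcripts were summed per gene with GENCODE vM21 and rounded to whole numbers. The 176 unmatched transcripts held 0.118% to 0.262% of the reads. Genes were filtered on low counts (filterByExpr by group), scaled by TMM, and tested in 1 edgeR 4.0.16 quasi-likelihood fit of all 22 libraries with a term for each group, in R 4.3.3, with Benjamini-Hochberg adjustment over 12415 genes. The contrasts were phagocytic over non-phagocytic cells (averaged over the genotypes and within each), Apoe-/- over wild type within each sort, and the difference of the sort effects. The common biological coefficient of variation was 0.426, and counting error adds most to the lowest genes. The CPM values given here were scaled by the same TMM factors. SE are for log2 fold changes. The code was tested on simulated data.

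The members and the lists were chosen with earlier results of these data known. Values by library are given for members that passed in any contrast, for the 3 of smallest and 2 of largest p in each class, and for Lamp2, Atp6v0d2 and the member of highest TPM in each class. Alternatives used limma 3.58.1, DESeq2 1.42.0, other scalings, filters, count summaries and subsets of libraries. The values of 1 gene of the other luminal list and 1 of the monocyte list are not reported here.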

Additional observations from a re-analysis of the deposited data

Results flagged for a closer look

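In 96 checks, of 21 genes and 3 class sums in each of 4 groups, 3 libraries stood further from the rest of their group than Dixon's limit at 95% allows, and chance alone gives about 1 in 20. Atp6v0c, the ring subunit of the proton pump, was at 1353 CPM in wild-type phagocytic pool 4, against 815 to 925 CPM in the other 4 pools of that group. Atp6v0a1, a subunit that couples rotation to proton transfer, was at 101.9 CPM in Apoe-/- phagocytic pool 3, against 72.7 to 83.6 CPM in the other 5. Atp6v0d2 was at 6.919 CPM in Apoe-/- non-phagocytic pool 5, against 0.611 to 2.70 CPM in the other 5, at a few reads a library.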

How the results depend on the processing

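Of the counts of members called, all higher in phagocytic cells, the averaged sort effect gave 13 by the edgeR fit and 9 to 19 under the other count-based settings (9 without a filter on low counts, 16 with DESeq2, 19 with the block described below), and 10 to 13 when each library was left out. On deposited values it gave 3 (limma on log2 of FPKM, pseudocount 1), 6 (FPKM, pseudocount 0.1) and 1 (TPM, pseudocount 1). In Apoe-/- cells the count of 5 became 11 with DESeq2, 2 without a filter, 2 with only the groups compared, 0, 0 and 0 on the same FPKM and TPM values and 0 without Apoe-/- non-phagocytic pools 2 and 5, and ran from 0 to 7 with 1 library left out. In wild-type cells the count of 2 became 4 with DESeq2, 1 without a filter, 1 with only the groups compared, 1, 1 and 0 on the FPKM and TPM values and 1 without wild-type pool 4 of both sorts, and ran from 1 to 3 with 1 library left out. Why the counts moved was not tested.

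A replicate block on pool number within genotype gave 19 members in the averaged effect, 10 in Apoe-/- cells, 4 in wild-type cells and 0 for the difference of the sort effects, and cannot be fitted for the comparisons of the genotypes. The numbers were not taken as a pairing: the deviations of same-numbered libraries correlated at 0.0402 to 0.423, with 8 of 11 pairs over 0.1, and 7 of 11 phagocytic libraries correlated best with their own number, a hint from the data and not from the design.

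No alternative run called a member in a comparison of the genotypes or of the sort effects. Estimates near 0 changed sign: Lgmn was -0.034 with the satellite-like share as covariate, -0.074 without Apoe-/- non-phagocytic pools 2 and 5 and -0.032 to 0.15 with 1 library left out, and Glb1 was -0.012 from protein-coding transcripts alone and -0.033 to 0.14 with 1 library left out. Transcript shares differed for 2 genes with at least 20 reads a library and for 0 without Apoe-/- non-phagocytic pools 2 and 5. The protein-coding summary and that last setting were chosen after seeing the data. Restricting the fit to the groups compared gives no value for the averaged effect or the difference of the sort effects. With 5 or 6 pools a group and a few reads for Atp6v0d2, depth and pool number limit what can be called.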
